A study of Mus musculus with 5 samples.

Results

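The 2 Control libraries of bulge cells, the stem cells of the mouse hair follicle, are described here on their own, out of 5 RNA-seq samples in the series. Of 30840 features in the deposited table, 5714 reached a TPM (a level scaled for transcript length and library total) of at least 10 in both Control libraries, which is 18.5% of the table, and these are called the expressed set below. Control mice were Ring1a-/- and Ring1bflox/flox and lacked the K15-CrePR1 transgene, so the floxed Ring1b gene was left intact while Ring1a was missing in every mouse of the series. Their skin received 1% RU-486 daily for 10 days from postnatal day 50, and back skin was taken at postnatal day 70. Each sort took 50000 cells that lacked Sca1, had high α6-integrin, and carried both CD34 and EpCAM. As a model these cells are therefore a Ring1a-null, RU-486-treated baseline, and no untreated wild type was analysed here. The labels do not say whether the 2 libraries, titled Control 2 and Control 3, came from separate mice. Part of the spread between them may be technical, and they differed in a sex-linked gene, as given below. In bulk RNA, fewer cells of a type and less RNA per cell cannot be told apart.

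The bulge is the niche of the resting hair follicle in which slow-cycling stem cells sit between growth phases. Bulge cells are basal keratinocytes: they carry keratins 5, 14 and 15, hold on to the basement membrane through α6β4 integrin, and keep their identity through the transcription factors Sox9, Lhx2, Nfatc1 and Tcf7l2. Their rest is held by BMP signals and by a low level of WNT activity, and in mice they carry the surface glycoprotein CD34.

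The libraries differed in depth, with 42916441 counts in Control 2 and 11626313 in Control 3, a ratio of 3.69. A single count stood for 0.0233 CPM (counts scaled to the library total) in Control 2 and 0.0860 in Control 3. A count of 0 allows up to 3 counts, equal to 0.0410 and 0.119 TPM for a feature of the median length in the expressed set, by counting error only. The counts of both libraries differed by far more than sampling noise, with a chi-square of 36.8 per degree of freedom, so they are not 1 library deposited as 2. The libraries also stood apart in a sex-linked gene. Xist, the noncoding RNA of the inactive X chromosome, had 63.9 TPM (28331 counts) in Control 2 and 0.984 TPM (126 counts) in Control 3, whereas the Y-linked genes Eif2s3y (39.2 and 37.3 TPM), Kdm5d (17.5 and 18.3 TPM) and Uty (11.4 and 12.6 TPM) had RNA in both. On the centred scale explained below, these 3 Y-linked genes were higher in Control 3, with a median log2 ratio of 0.52 (0.43 in TMM-scaled counts). Control 2 thus held both Xist and Y-linked RNA, and Control 3 held Y-linked RNA with little Xist. Its part in the differences between both libraries was not tested.

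All 5 bulge markers belonged to the expressed set. Krt15 (ENSMUSG00000054146.8), the keratin that names this cell, stood at 3339 TPM in Control 2 and 2508 TPM in Control 3 and ranked the second of all nuclear protein-coding genes by mean TPM. Lhx2 (ENSMUSG00000000247.11), a LIM homeodomain factor that keeps bulge cells at rest, had 302 and 242 TPM. Cd34 (ENSMUSG00000016494.9), the sorting antigen, had 241 and 122 TPM. Sox9 (ENSMUSG00000000567.5), which sets up the stem cell pool, had 150 and 117 TPM, and Nfatc1 (ENSMUSG00000033016.15), a calcium-regulated factor of stem cell rest, had 93.2 and 92 TPM. Relative to the median ratio of Control 3 to Control 2 over the expressed set, explained below, 4 of the 5 lay within 0.44 on the log2 scale above it, and Cd34 lay 0.54 below it (centred log2 ratio -0.54). In counts scaled with TMM factors the Cd34 ratio was 0.673, with a 95% counting interval of 0.651 to 0.695.

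The other sort markers are given next. Itga6 (α6-integrin) had 134 and 104 TPM and Epcam had 55.5 and 47.1 TPM. Ly6a, which encodes the excluded antigen Sca1, had 2.77 and 1.08 TPM from 80 and 10 counts, and was the sort marker outside the expressed set. Further factors known from the bulge were abundant: 23 of 30 genes of that list were in the set, led by Nfib (457 and 314 TPM), Nfix (434 and 328 TPM), Trp63 (363 and 256 TPM), the epithelial p63 factor, and Zfp36l1 (269 and 309 TPM), an RNA-binding regulator of mRNA decay. Tcf7l2, the TCF factor of WNT signalling in resting bulge, had 217 and 170 TPM.

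**Figure D1:**
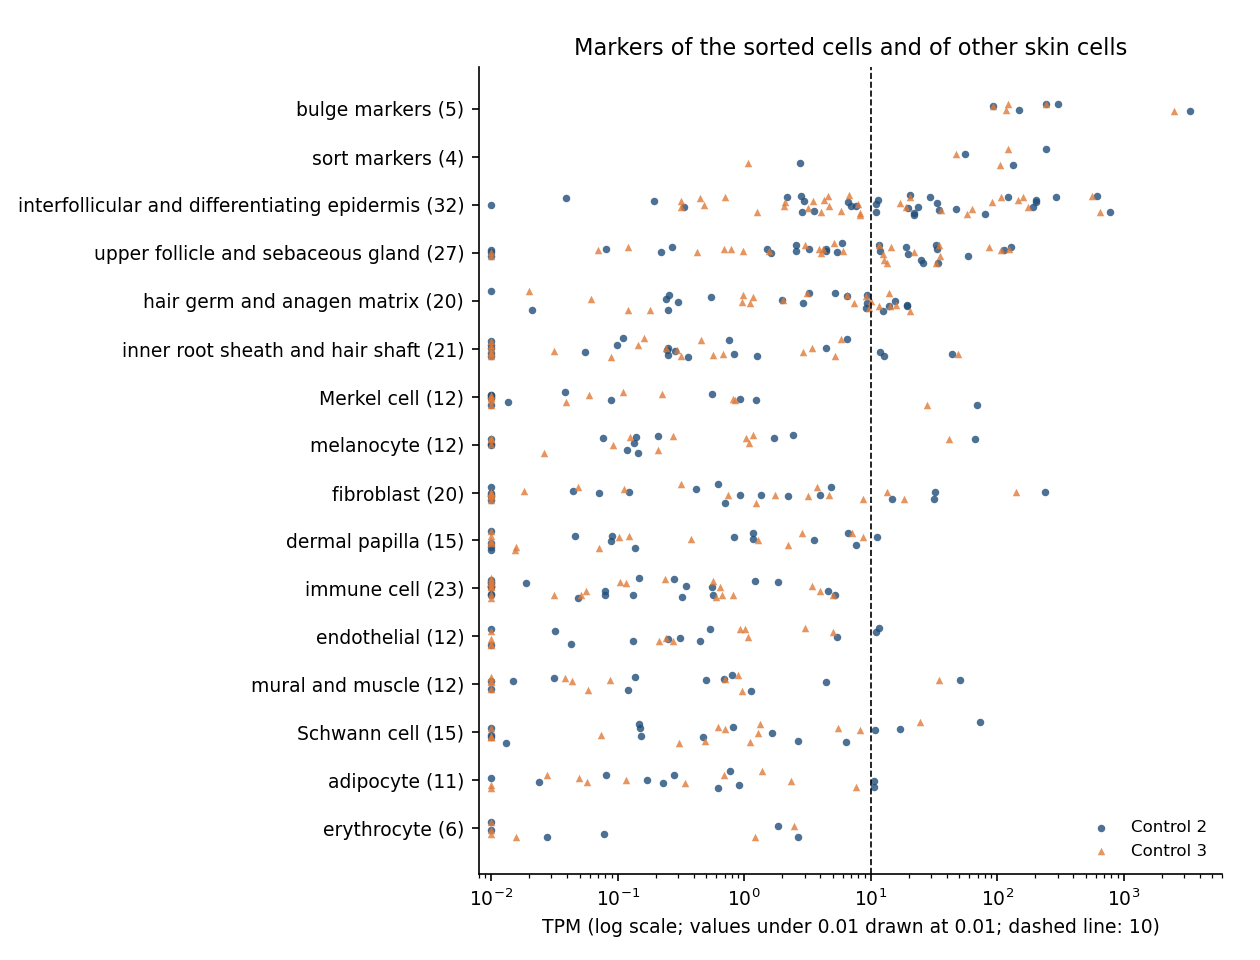
TPM of each marker gene in Control 2 (circles) and Control 3 (triangles) on a log scale, by list, with the number of genes in brackets and a dashed line at 10 TPM. The 5 bulge markers lie to the right of the line in both libraries, most genes of the lists of non-epidermal cells lie to its left, and the epidermal and upper follicle lists spread over both sides.

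Markers of cells outside the keratinocyte lineage were mostly low. Of 137 distinct genes on 10 such lists (Merkel cell, melanocyte, fibroblast, dermal papilla, immune, endothelial, mural and muscle, Schwann, adipocyte and erythrocyte), 7 were in the expressed set, against 29.0% of all protein-coding features. These were Sparc (239 and 140 TPM), a matricellular protein, Mitf (66.8 and 41.9 TPM), a factor of melanocytes that other cells also transcribe, Cck (69.7 and 28 TPM), a peptide hormone, Pmp22 (73.1 and 24.5 TPM), a membrane protein of myelin and of epithelia, the proteoglycan Cspg4 (51.1 and 34.4 TPM), and the collagen VI genes Col6a1 (31.6 and 18.2 TPM) and Col6a2 (32.0 and 13.6 TPM). The summed TPM of a list ran from 4.64 for erythrocytes to 333 for fibroblasts in Control 2, and from 3.71 to 196 in Control 3. Defining genes of several types had no count in either library. Among them were Col3a1, Lox, Twist1 and Twist2 of fibroblasts, Sox10 and Tyrp1 of melanocytes, Krt20, Sox2 and Isl1 of Merkel cells, Rspo3 and Notum of the dermal papilla, Coro1a, Laptm5, Cd52, Itgax, Cd79a and Trac of immune cells, Prox1 of lymphatic endothelium, Acta1 of muscle, and Hba-a2 of red cells. The 23 immune genes summed to 15.6 and 16.3 TPM, with Cd3d the highest at 5.27 and 5.0 TPM. Pecam1, the endothelial adhesion gene, had 11.1 TPM in Control 2 and 5.07 TPM in Control 3.

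Genes of other keratinocytes were higher than those. Of 32 genes of interfollicular and differentiating epidermis, 13 were in the expressed set, 40.6% of the list against 29.0% of all protein-coding features. The secreted differentiation products Dmkn (774 and 646 TPM), Krtdap (617 and 557 TPM) and Sbsn (289 and 161 TPM) led, followed by the keratins Krt77 (193 and 176 TPM), Krt10 (204 and 145 TPM) and Krt6a (201 and 90.5 TPM). Krt1, the partner of Krt10, had 34.5 and 36.2 TPM. The upper follicle and sebaceous list had 11 of 27 genes in the set, with Krt17 (114 and 106 TPM), Krt80 (129 and 86.0 TPM), the stem cell receptor Lgr6 (33.0 and 34.4 TPM) and the isthmus stem cell gene Lrig1 (26.1 and 13.6 TPM). Of hair germ and matrix genes 4 of 20 were in the set, with list medians of 4.23 and 4.81 TPM, and Pthlh (15.5 and 9.99 TPM) fell just outside it. Of 21 inner root sheath and hair shaft genes, Gata3 alone was in the set (43.7 and 49.3 TPM), and Krt84, Krt73, Krt31, Krt33a and Padi4 had no count. Over all lists of other cell types, 36 of 236 genes were in the set, against 29.0% of all protein-coding features. What part of the RNA came from such cells was not tested.

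Gene types shared the expressed set unevenly. Protein-coding features made up 5062 of the 5714, or 29.0% of the 17431 protein-coding features of the table, and 5049 of them were nuclear. The rest held 210 features annotated as miRNA, 160 long noncoding features, 99 pseudogenes, 104 small nuclear, nucleolar and other short RNAs, 58 features awaiting annotation (TEC), 9 rRNA entries and 25 mitochondrially encoded features, of which 13 are coding. By mean TPM, 3195 features of the set lay between 10 and 30 TPM, 1968 between 30 and 100 TPM, 388 between 100 and 300 TPM and 125 between 300 and 1000 TPM. Above 1000 TPM, 11 features were nuclear protein-coding: 30 features lay between 1000 and 10000 TPM with all 11 of those, and 8 lay above 10000 TPM. The features closest to the threshold were Gm22990, Gm17024 and Gas7 (10.001 to 10.004 TPM in the lower library) inside it, and Adam9, Pacsin3 and Pthlh (9.986 to 9.996 TPM in the lower library) outside it. With 1 library alone, 7701 features passed in Control 2 and 6120 in Control 3, since 1987 features reached 10 TPM in Control 2 only and 406 in Control 3 only. Counts of list members in the set, given below, are to be read against the 29.0% of all protein-coding features.

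A large share of TPM went to few and very short entries. Features annotated as miRNA took 25.8% of TPM in Control 2 and 40.6% in Control 3, but 0.413% and 0.577% of the counts. Within them, 4 entries held 92.1% and 96.7% of that TPM: Gm23935, Gm24245 and Gm24270, each listed at 59119 TPM in Control 2 and 113691 TPM in Control 3, and Mir6236, at 60804 and 51360 TPM. Together these 4 made up 23.8% of all TPM in Control 2 and 39.2% in Control 3, from 0.379% and 0.547% of the counts. Of the 210 entries, 115 had under 10 counts in at least 1 library. By annotation, 83 lay in an intron and 6 in an exon of a gene on the same strand, and 121 in neither. The counts are on hairpin entries in libraries of polyadenylated RNA, and they do not measure mature miRNAs.

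The sequence shared by 3 of these entries is shown because its length sets their TPM. The entries Gm23935, Gm24245 and Gm24270 (on chromosomes 16, 4 and 9 of GRCm38) share 1 sequence of 57 bases, which no other transcript of GENCODE M21 held in full. They had the same value in each library, so their counts cannot be assigned to 1 of the 3 loci. Partial or inexact copies were not searched. Neither this sequence nor Mir6236 was aligned to rRNA, so an origin of their counts there was not tested. For 3 of the miRNA entries with a wide gap between libraries, described below, mature forms from RefSeq (GRCm38.p6) follow with the seed (bases 2 to 8) in capitals. They lie on chr3:157544285-157544306 (miR-186-5p, plus strand), chr1:128202404-128202424 (miR-128-3p of Mir128-1, plus strand) and chr16:24827868-24827889 (miR-28a-5p, plus strand), and no 2 of these 3 share a seed.
Gm23935, Gm24245 and Gm24270: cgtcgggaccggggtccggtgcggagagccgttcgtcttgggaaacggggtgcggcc
miR-186-5p: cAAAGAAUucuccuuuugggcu
miR-128-3p: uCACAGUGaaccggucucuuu
miR-28a-5p: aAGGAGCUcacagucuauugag

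The length by which the authors' TPM divides a count could be read back from the table. Among features with 1 annotated transcript longer than 1000 bases and over 200 counts, count over TPM was a straight line in transcript length, within 1 base for 100% of the 1537 features of Control 2 and the 491 of Control 3. The line implied a mean fragment of 187 bases in Control 2 and 177 bases in Control 3. For a transcript of 1000 to 3000 bases this left median effective lengths of 1833 bases in Control 2 and 1843 bases in Control 3. For the 57-base entries, shorter than a fragment, it left 13.8 bases in Control 2 and 8.47 bases in Control 3. The 3 entries had 34215 counts each in Control 2 and 13880 in Control 3, and the ratio of these lengths, Control 3 over Control 2, was 0.612 (Gm23935).

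**Figure D2:**
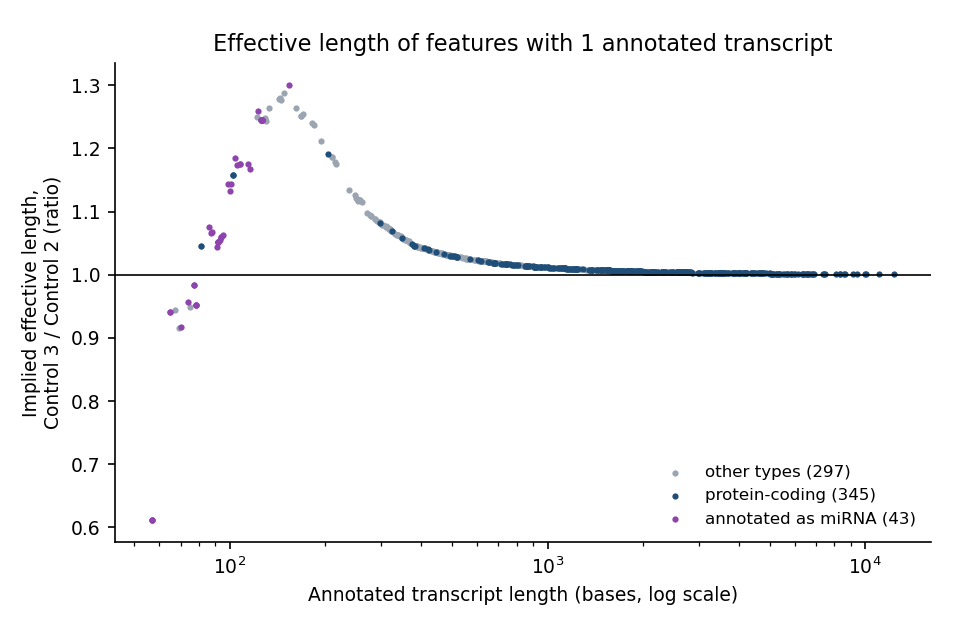
Ratio of the implied effective length in Control 3 to that in Control 2 against annotated transcript length (bases, log scale), for features of the expressed set or of the gene lists with 1 annotated transcript and over 20 counts in both libraries. The points approach 1 for long transcripts, lie above 1 between 80 and 500 bases, and fall to 0.612 for the 57-base entries Gm23935, Gm24245 and Gm24270 at the far left.

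TPM has a fixed sum in each library, so a larger share for these entries leaves less for all other features. Mitochondrial rRNA also held a larger share of TPM in Control 3 (19.1%) than in Control 2 (18.1%). The part of each in the shift given next was not tested. Nuclear protein-coding genes held 35.8% of TPM in Control 2 and 26.2% in Control 3, against 69.6% and 63.8% of the counts. The median ratio of Control 3 to Control 2 over the expressed set was 0.732 (log2 -0.45), and 924 of 5714 features (16.2%) were higher in Control 3 as deposited. In counts scaled by TMM, 2676 (46.8%) were higher. Ratios below are therefore given after division by that median ("centred"), and levels as deposited.

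**Figure D3:**
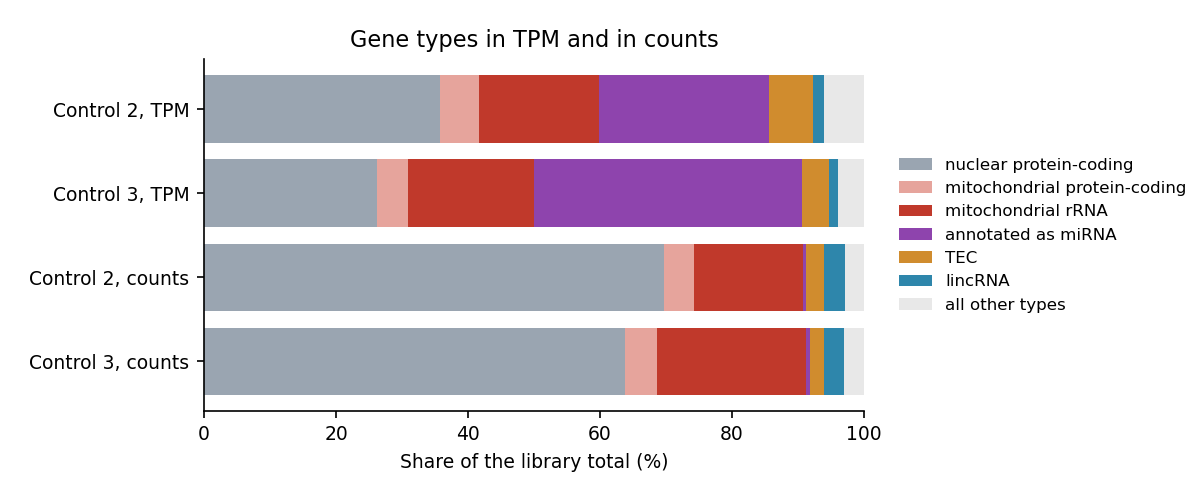
Share of each library's total held by gene types (percent), in TPM and in expected counts. Entries annotated as miRNA hold 25.8% and 40.6% of TPM and 0.413% and 0.577% of the counts, and nuclear protein-coding genes hold 35.8% and 26.2% of TPM and 69.6% and 63.8% of the counts.

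Mitochondrially encoded RNA made up 24.25% of TPM in Control 2 and 24.18% in Control 3, and 21.2% of the counts in Control 2 and 27.4% in Control 3. The mitochondrial rRNA mt-Rnr1 was the most abundant feature of both libraries, at 129599 and 138006 TPM, and mt-Rnr2 had 51163 and 53077 TPM. All 13 mitochondrial protein genes were in the set, led by mt-Co1 (13271 and 11930 TPM), a subunit of cytochrome oxidase. Of 80 nuclear oxidative phosphorylation genes 77 passed, against 29.0% of all protein-coding features, and 4 were at least 2-fold higher in Control 3 after centring, against 2.91% of the whole set, with Atp5b, the catalytic subunit of ATP synthase, at 629 and 485 TPM. Of 29 glycolysis genes 15 passed, with Gapdh at 376 and 225 TPM and Ldha at 136 and 129 TPM. Hexokinase Hk2, with 29.0 and 54.6 TPM (centred log2 ratio 1.36), was the one of the 15 past 2-fold.

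Among the 10 features of highest mean TPM were also Gm37376, an unannotated transcript (60437 and 36019 TPM), mt-Nd4l (10011 and 7397 TPM) and the pseudogene Gm29013 (11938 and 2579 TPM). The top 10 held 51.5% of TPM in Control 2 and 64.5% in Control 3, and 9 of them were in the top 10 of both. In counts, the 10 most abundant features held 25.5% and 31.2%. Within nuclear protein-coding genes the TPM was far less concentrated, with 5.72% and 6.83% in the top 10, 21.1% and 23.1% in the top 100, and 84 of those 100 shared. Of the 99 pseudogenes in the set, 48 matched a coding or rRNA transcript of the set over at least 80% of their length at 95% identity or more, 21 of them to ribosomal protein genes, so their counts are uncertain. Gm10163 and Gm10240 both match Rpl21, at 99.6% identity, and went opposite ways, from 306 to 39.7 TPM and from 122 to 210 TPM.

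Long noncoding RNA was led by Malat1 (7244 and 4538 TPM), a nuclear RNA abundant in most cells, and AY036118 (3079 and 5225 TPM). The AY036118 sequence lay wholly, at 100% identity, within the rRNA entry CT010467.1 (6409 and 6366 TPM), so the counts of both are uncertain. Next came Gm13568 (1151 and 428 TPM), which matched Notch1 over 92.8% of its length, the snoRNA host Gas5 (790 and 660 TPM) and Neat1 (671 and 441 TPM), the scaffold RNA of paraspeckles.

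Among the nuclear protein-coding genes that are not ribosomal, Lars2, the mitochondrial leucyl-tRNA synthetase, came first with 3054 and 4521 TPM and was higher in Control 3, unlike Krt15 next to it. The Lars2 sequence was not aligned to rRNA, so whether its counts hold rRNA reads was not tested. Krt5, the basal keratin, followed with 2784 and 2202 TPM. The S100 calcium-binding genes S100a6 (2119 and 1739 TPM), S100a11 (1819 and 1587 TPM) and S100a4 (1488 and 846 TPM) came next, together with Postn (1800 and 1221 TPM), the matrix protein periostin, and Tpt1 (1362 and 1166 TPM), a translationally controlled protein of growing cells. Also among the first 15 were Fxyd3 (1048 and 930 TPM), a regulator of the sodium pump, the lipid carrier Apoe (1116 and 787 TPM), the early growth response factor Egr1 (1073 and 792 TPM), B2m (831 and 897 TPM), the light chain of MHC class I, the junction protein Perp (1003 and 697 TPM), Col17a1 (999 and 582 TPM), the hemidesmosome collagen that holds stem cells to the basement membrane, and Krt14 (826 and 721 TPM), the partner of Krt5. The remaining 15 of the first 30 lay between 325 and 813 TPM in either library. They were the elongation factor Eef1a1, Dmkn, the desmosome plakin Dsp, the hemidesmosome plakin Dst, the junction protein Afdn, Krtdap, the phosphatase Dusp1, the growth factor Ptn, Atp5b, the RNA-binding protein Hnrnpa2b1, the annexin Anxa8, the actin-binding peptide Tmsb4x, the chemokine Ccl27b, the metallothionein Mt1 (719 and 325 TPM) and the matrix protein Ecm1. Of all 30, Lars2 was the one past 2-fold after centring (log2 1.02).

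Ribosomal protein genes lay mostly above the median ratio of Control 3 to Control 2. Of 83 cytosolic ribosomal protein genes, 82 were in the set, and they summed to 36431 and 30730 TPM, or 10.2% and 11.7% of nuclear protein-coding TPM. Near-identical pseudogenes are listed apart from them, so this sum and the levels of single genes are uncertain. Rpl12, for example, had 37.8 and 30.4 TPM, and its matching pseudogene Gm10275 had 687 and 659 TPM. Rps27 led with 1512 and 1032 TPM. After centring, 72 of 82 lay above the median ratio, with a median log2 of 0.22 and none past 2-fold. As deposited 9 of 82 were higher in Control 3, and in TMM-scaled counts 74 of 82, against 16.2% and 46.8% of the whole set. Of 43 translation factors 40 passed.

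Of 40 keratin genes, 10 were in the set (25%, against 29.0% of all protein-coding features) and 6 had no count. Basal keratins led the family. After Krt15, Krt5 and Krt14 came Krt24 (239 and 246 TPM), a keratin of the bulge, then Krt77, Krt10, Krt6a and Krt17 as given above. No keratin passed 2-fold between libraries after centring. The simple keratins Krt8 (0.0135 and 0.0389 TPM) and Krt18 (0.0382 and 0.110 TPM) were near 0, and 0 of 3 keratin-associated protein genes in the table were in the set.

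Genes of both desmosomes and hemidesmosomes were present. Of 31 desmosome and junction genes 17 passed, among them Perp, Dsp (813 and 605 TPM), Ctnnb1 (346 and 275 TPM), the β-catenin of junctions and WNT signalling, Dsc3 (202 and 159 TPM), Dsg3 (190 and 140 TPM) and Jup (207 and 118 TPM). Of 26 integrin genes 9 passed, led by the α6β4 pair Itga6 and Itgb4 (122 and 95.2 TPM) ahead of Itgb1 (55.8 and 44.5 TPM). The laminin chains Lamb3 (136 and 87.3 TPM) and Lama3 (69.1 and 47.3 TPM) were among 6 of 11 laminins in the set. Collagens in the set numbered 8 of 38 and lay below the median ratio in 8 of 8 cases, both after centring (median log2 -0.44) and in TMM-scaled counts, where 46.8% of the whole set was higher. The 3 fibroblast markers in the set, Sparc, Col6a1 and Col6a2, also lay below it (median centred log2 -0.35), and the last pair belongs to both lists. The list of 20 fibroblast genes summed to 333 and 196 TPM, and its part in the collagen values was not tested. The collagens in the set included Col17a1, Col7a1 (85.9 and 40.8 TPM), the anchoring fibril collagen, and Col12a1 (56.7 and 39.5 TPM). For Itga3, TPM and counts differed: it had 59.8 and 19.0 TPM, a centred log2 ratio of -1.20, but a TMM-scaled count ratio of 0.868 (95% counting interval 0.812 to 0.926), with an implied length 2.04 times as long in Control 3.

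BMP genes showed more inhibitor than ligand RNA. Of 21 BMP ligand and antagonist genes 6 passed (28.6%), near the 29.0% of all protein-coding features. The antagonists Grem1 (284 and 196 TPM), Sostdc1 (197 and 170 TPM) and Fst (146 and 121 TPM), a follistatin that binds activin and BMP, stood above the ligands Bmp2 (13.9 and 11.6 TPM) and Bmp7 (9.29 and 8.98 TPM). On the receiving side 10 of 16 genes passed, with the receptors Bmpr2 (57.1 and 48.3 TPM) and Bmpr1a (42.4 and 35.4 TPM), the signal carriers Smad5 (47.8 and 35.2 TPM) and Smad1 (28.6 and 19.1 TPM), and the Id targets Id3 (116 and 92.8 TPM), Id2 (128 and 78.1 TPM) and Id1 (82.0 and 46.2 TPM). Of 19 TGF-β and activin genes 10 passed, led by the TGF-β-induced matrix protein Tgfbi (289 and 195 TPM).

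WNT ligands were low while receptors and inhibitors were present. None of 16 WNT ligand genes reached 10 TPM in both libraries, the highest being Wnt4 (13.6 and 9.68 TPM). Of 50 receptor, effector and inhibitor genes 24 passed. The secreted inhibitors Sfrp1 (458 and 294 TPM) and Dkk3 (185 and 111 TPM) were the highest besides Ctnnb1 and Tcf7l2, followed by the R-spondin receptors Lgr5 (135 and 115 TPM), a marker of the lower bulge and hair germ, and Lgr4 (89.2 and 56.3 TPM), and by the receptors Fzd7 (94.4 and 68.5 TPM) and Fzd2 (69.4 and 59.0 TPM). The feedback target Axin2 had 12.6 and 20.6 TPM and Lef1, the TCF factor of activated germ, 5.22 and 14 TPM, both higher in Control 3. After centring, 3 of the 24 were at least 2-fold higher in Control 3 and 0 at least 2-fold lower. Over the whole set these shares were 2.91% and 2.98%.

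FGF genes included Fgf18 (63.4 and 52.7 TPM), a ligand that bulge cells make in rest, with Fgf1 (44.5 and 39.3 TPM) and the receptors Fgfr1 (181 and 89.5 TPM), Fgfr2 (145 and 97.3 TPM) and Fgfr3 (48.4 and 34.8 TPM). In all, 9 of 28 FGF genes passed (32.1%), against 29.0% of all protein-coding features. Of 18 Notch genes 8 passed, with Jag1 (65.9 and 38.8 TPM), the mediator Rbpj (44.9 and 51.5 TPM) and Notch1 (55.7 and 25.5 TPM). Because Gm13568 matched Notch1, as given above, the Notch1 counts are uncertain. Of 13 Hedgehog genes 7 passed. The co-receptors Gas1 (124 and 87.6 TPM), Boc (57.8 and 30.3 TPM) and Cdon (44.9 and 31.3 TPM) and the transducer Smo (45.9 and 33.2 TPM) stood above the target Gli1 (6.50 and 9.26 TPM). Gli1 was outside the set, while Gli2, Gli3 and Ptch1 were in it. Egfr (108 and 70.3 TPM) was the main EGF receptor, and 3 of 16 genes of that family passed. Among nuclear receptors, 11 of 27 in the set, the vitamin D receptor Vdr (146 and 127 TPM) led, and the glucocorticoid receptor Nr3c1 had 79.6 and 59.6 TPM.

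Of 39 Hox genes 9 were in the set, with Hoxa7 (101 and 63.1 TPM), Hoxc8 (69.6 and 60.2 TPM), Hoxd8 (28.2 and 25.4 TPM), Hoxb6 (28.1 and 24.1 TPM) and Hoxa5 (25.9 and 22.7 TPM) the highest, and 4 had no count. Homeobox genes outside the Hox clusters gave 10 of 92, among them Lhx2, Hopx (126 and 113 TPM), Irx2 (126 and 62.0 TPM) and Barx2 (46.6 and 38.9 TPM), and 18 had no count. SOX, forkhead, T-box and GATA genes gave 10 of 66, led by Foxp1 (227 and 126 TPM), Sox9 and Tbx1 (81.1 and 51.9 TPM), a T-box factor known from bulge self-renewal. The shares of 23.1% (Hox), 10.9% (other homeobox) and 15.2% (SOX, forkhead, T-box and GATA) compare with 29.0% over all protein-coding features.

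Polycomb genes were at moderate levels. Of 34 genes of PRC1, the complex that ubiquitinates histone H2A, 16 were in the set. Max (128 and 59.3 TPM) and Scmh1 (74.0 and 52.8 TPM) led, and the subunit Pcgf2 had 84.1 and 32.5 TPM. Rnf2, the gene of Ring1b, had 25.1 and 24.4 TPM. Ring1, deleted by genotype, had 1.18 and 2.35 TPM, which checks nothing because gene-level counts can include exons outside a deletion. Of 13 PRC2 genes, for the H3K27 methyltransferase complex, 9 passed, with Eed (74.2 and 49.2 TPM), Ezh2 (60.0 and 21.8 TPM) and Suz12 (33.5 and 25.4 TPM). Of 13 genes for enzymes and partners that remove the H2A ubiquitin 9 passed, led by Mysm1 (57 and 32.3 TPM).

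Mitosis genes were low. Of 42, 2 were in the set, or 4.76% against 29.0% of all protein-coding features: Pttg1 (43.3 and 30.7 TPM), securin, and Bub3 (12.3 and 10.3 TPM), a checkpoint protein that non-dividing cells also carry. Top2a had 2.93 and 4.95 TPM. Of 47 DNA replication genes 10 passed (21.3%) and 38 had at least 1 TPM in both libraries, with Pcna (91.9 and 42.5 TPM) the highest. Cdkn1a, the p21 inhibitor, had 107 and 93.5 TPM, cyclin D1 (Ccnd1) 36.1 and 25.7 TPM, and Cdkn1b 20.2 and 15.2 TPM.

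Immediate early genes were high in both libraries. Of 38 such genes 32 passed, and besides Egr1 the highest were Dusp1 (675 and 485 TPM), Fos (461 and 365 TPM), Ctgf (532 and 270 TPM), Zfp36 (480 and 308 TPM) and Fosb (403 and 253 TPM). The stress factor Atf3 had 410 and 160 TPM. All 18 heat shock genes passed, with Hspb1 at 524 and 282 TPM and Hsp90ab1 at 467 and 328 TPM. Of the 32 immediate early genes, 22 lay below the median ratio and 4 were at least 2-fold lower in Control 3 after centring, and 26 of 32 were lower in TMM-scaled counts. Over the whole set 2.98% of features were at least 2-fold lower after centring, and 46.8% were higher in TMM-scaled counts.

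Promoter sequence could be set beside abundance for genes found in the RefSeq table of starts (GRCm38.p6). In the 100 bases before the first listed start, TATAAA on the gene's strand was in 54 of 4510 genes (1.20%) of 10 to 100 TPM and in 21 of 351 genes (5.98%) of 100 to 1000 TPM. Over the first listed starts of all 13541 matched nuclear coding genes (77.8% matched) the share was 2.96%, and on the opposite strand 1.39%. Over all 32851 starts of the table, of coding and other genes, these shares were 3.80% and 2.23%. In the 2 classes 81.4% and 80.5% of genes were matched. For the classes under 10 TPM and above 1000 TPM fewer than 80% had a promoter, and the check is void there. Among the genes that were matched, TATAAA was in 5.50% under 1 TPM (74.0% matched) and in 2.11% at 1 to 10 TPM (78.0% matched). No trend of the motif with abundance is therefore drawn. The median number of CG pairs in that window was 9 in both classes, and CCAAT was on the gene's strand in 12.3% and 10.8%. Of the 30 genes listed above, 27 had a promoter and 4 held TATAAA. These are shown with the motif in capitals, each the 100 bases before the start: S100a4 at chr3:90603670-90603769 (plus strand), Krtdap at chr7:30787805-30787904 (plus strand), Ecm1 at chr3:95739570-95739669 (minus strand) and Col17a1 at chr19:47692043-47692142 (minus strand).
S100a4: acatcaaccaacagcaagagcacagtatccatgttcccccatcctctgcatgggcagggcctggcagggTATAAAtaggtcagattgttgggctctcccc
Krtdap: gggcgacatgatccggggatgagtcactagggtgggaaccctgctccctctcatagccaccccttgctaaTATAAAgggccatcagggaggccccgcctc
Ecm1: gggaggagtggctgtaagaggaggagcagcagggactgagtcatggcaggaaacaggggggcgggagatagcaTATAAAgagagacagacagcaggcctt
Col17a1: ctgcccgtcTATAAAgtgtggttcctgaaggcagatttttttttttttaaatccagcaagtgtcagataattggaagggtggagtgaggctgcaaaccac
The motif began 31, 30 and 27 bases before the start in S100a4, Krtdap and Ecm1, and 91 bases before it in Col17a1. A match describes the letters, not a bound site.

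The libraries ranked protein-coding features more alike than noncoding entries. Across the 28252 features with a count in either library, Pearson's r of log2(TPM + 1) was 0.910 and Spearman's rho 0.832, and on CPM r was 0.965. Within the expressed set r was 0.935 for the 5062 protein-coding features and 0.812 for the 210 miRNA entries, with rho of 0.860 and 0.554. These are correlations across features, which are not independent replicates. After centring, 81.6% of protein-coding features in the set lay within 1.5-fold between the libraries, against 38.1% of miRNA entries.

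**Figure D4:**
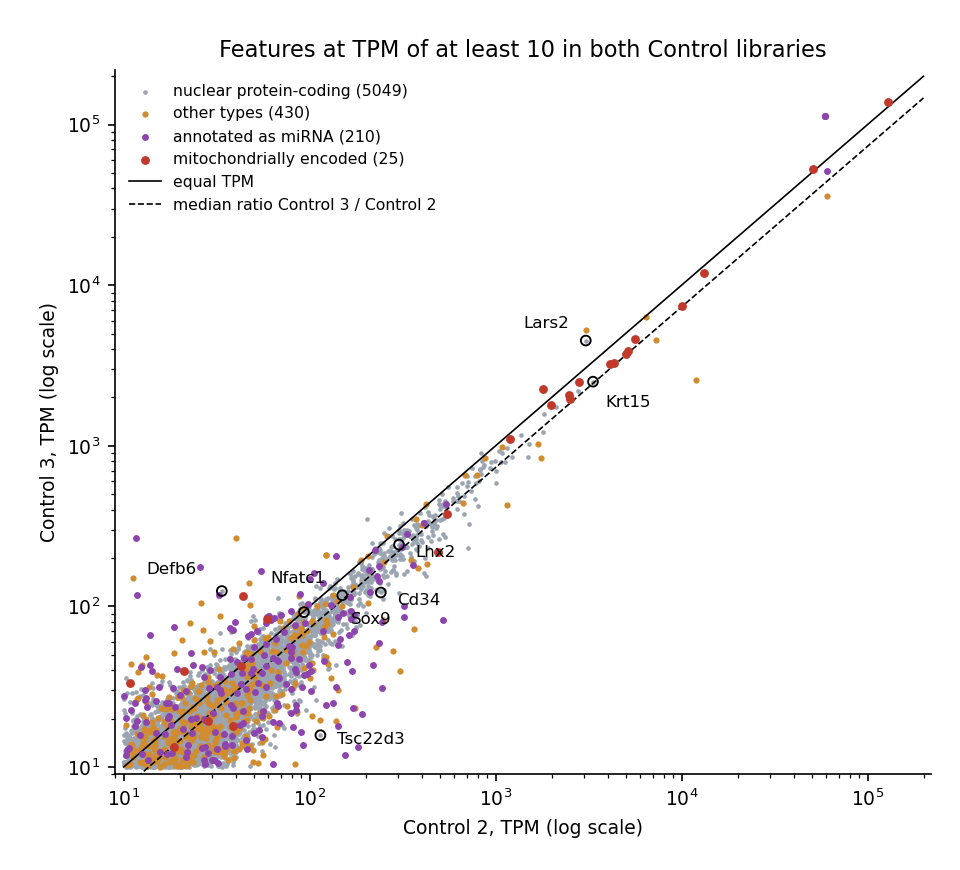
TPM in Control 2 and Control 3 (log scales) for the 5714 features at 10 TPM or more in both, coloured by type, with the line of equal TPM and the line of the median ratio of 0.732. Protein-coding genes follow the median line, and entries annotated as miRNA scatter most at low TPM. The points above 50000 TPM in both libraries are entries annotated as miRNA and the mitochondrial rRNAs mt-Rnr1 and mt-Rnr2. Named genes are circled.

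As deposited, 61 features of the set (1.07%) were at least 2-fold higher in Control 3 and 694 (12.1%) at least 2-fold lower. After centring, 166 (2.91%) were higher and 170 (2.98%) lower, and among protein-coding features 92 (1.82%) were higher and 88 (1.74%) lower. There is 1 value per library here, so these counts have no test. The share past 2-fold was lower at greater depth up to 10000 counts, from 34.4% of features with under 10 counts in Control 3 to 26.6% at 10 to 100, 4.72% at 100 to 1000 and 1.24% at 1000 to 10000 counts, and it was 7.81% for the 64 features with more. Of the 92 protein-coding features that were higher, 25 were also 2-fold higher in TMM-scaled counts and 10 were lower there, and of the 88 that were lower, 39 were 2-fold lower in counts. The implied length changed by 0.32 or more on the log2 scale in 55 of the 92 and 41 of the 88, against 922 of 5714 (16.1%) in the whole set. Arap1 is an example: 10.1 and 26.6 TPM, a centred log2 ratio of 1.85, while TMM-scaled counts gave 0.944 (counting interval 0.818 to 1.09). Anapc2 went the other way, with 61.1 and 13.9 TPM and a count ratio of 0.747.

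Short entries filled the extremes of the whole set. The 10 highest ratios were led by Mir186 (11.6 and 265 TPM), whose counts were 6 and 44, the short RNA entry Gm24379 (11.2 and 151 TPM), with 7 and 35 counts, and Mir128-1 (11.8 and 118 TPM), with 6 and 19 counts. Among the 10 lowest was Mir28a (191 and 21.5 TPM), with 120 and 5 counts. Tsc22d3 and Defb6 were the protein-coding features among these 20. Defb6, a β-defensin of epithelia, had 33.7 and 125 TPM, from 204 and 278 counts, which in TMM-scaled counts is 5.25-fold (counting interval 4.36 to 6.32). Tsc22d3, a glucocorticoid-induced leucine zipper gene, had 114 and 15.8 TPM, a count ratio of 0.188 with an interval of 0.169 to 0.208. Other protein-coding genes of well-filled counts that were lower in Control 3 were Fosl1, an AP-1 factor (65.3 and 13.3 TPM, count ratio 0.272), the orphan receptor Nr4a2 (55.1 and 12.5 TPM, 0.289) and Arrdc3, an arrestin-domain gene (72.5 and 17.4 TPM, 0.380), and one that was higher was Slc15a2, a peptide transporter (10.4 and 28.8 TPM, 4.24).

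**Figure D5:**
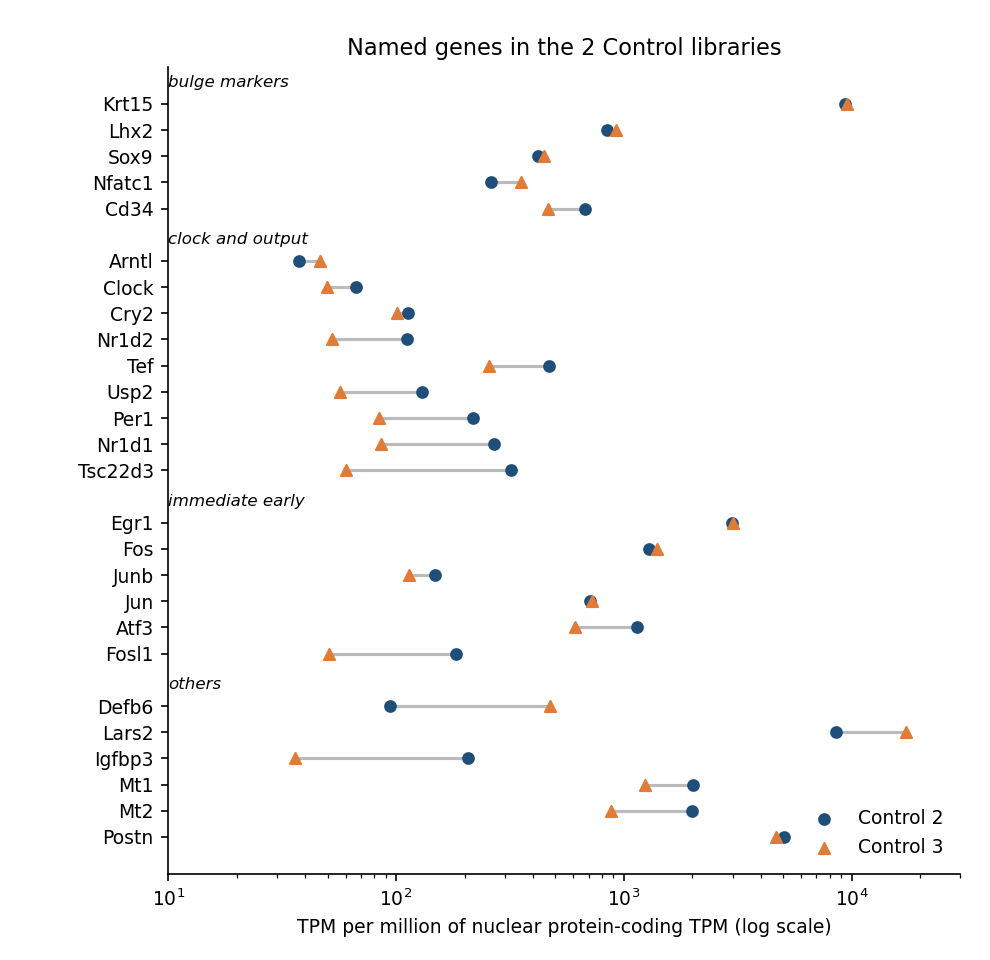
Level of named genes in Control 2 (circles) and Control 3 (triangles), as TPM rescaled to the same sum over nuclear protein-coding features (log scale). Of the bulge markers, Krt15, Lhx2 and Sox9 nearly coincide, while Cd34 lies lower in Control 3 and Nfatc1 higher. Per1, Nr1d1, Tsc22d3, Igfbp3 and Fosl1 lie lower in Control 3 and Defb6 and Lars2 higher.

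Genes of the circadian clock and its output were singled out after these values were seen. Of 22 such genes 12 were in the set, 10 of the 12 lay below the median ratio and 5 were at least 2-fold lower in Control 3 after centring, with a median log2 of -0.88 (TMM-scaled counts -0.83). Over the whole set 2.98% of features were 2-fold lower. Because the list was made after its values were seen, these counts do not measure a shift of clock genes. The 5 include Tsc22d3, given above for its ratio. Per1, a repressor of the clock, had 77.7 and 21.9 TPM (centred log2 -1.38), the nuclear receptor Nr1d1 96.0 and 22.5 TPM (-1.64), its relative Nr1d2 40.2 and 13.7 TPM (-1.11), the PAR-domain factor Tef 168 and 66.8 TPM (-0.88) and the deubiquitinase Usp2 46.6 and 14.9 TPM (-1.20). Dbp, below the threshold in Control 3, had 18.5 and 4.09 TPM. The activator Arntl had 13.4 and 12.1 TPM (0.30), Clock 23.9 and 13 TPM (-0.44) and Cry2 40.3 and 26.4 TPM (-0.16). Among these named genes, Per1, Nr1d1, Nr1d2, Tef and Usp2 lay farther apart between libraries than Arntl, Clock and Cry2. Klf9, Nfil3 and Rora were also in the set and are not itemised here. Whether the samples were taken at the same time of day was not stated, and its part in these ratios was not tested. Other genes chosen the same way were Igfbp3, an IGF-binding protein, at 74.2 and 9.44 TPM, the metallothionein Mt2 at 714 and 231 TPM, and Cyr61, a matricellular gene, at 249 and 83.4 TPM.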

How the data were processed

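RNA of sorted hair follicle stem cells was selected for polyadenylate, and Universal Plus mRNA-Seq libraries were made from 50 ng each (integrity number over 8), per the labels' protocols. The table deposited by the authors holds 1 expected count and 1 TPM per feature and library. The build mm39 and the tools RSEM 1.3.3, STAR 2.7.9a and DESeq2 1.38.2 stand in the submitters' processing notes, which give no role for them. In the Control libraries, 71.8% of the authors' expected counts above 0 were not whole numbers, and the authors' TPM sums to 999963 and 999966. Strand use in counting was not given in the sources used here, hence a gene and its antisense or overlapping partner cannot be told apart.

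Only the columns of Control 2 and Control 3 were used, with no comparison to the other group and no test. Identifiers were matched to GENCODE M21 (GRCm38), where 97.8% were present, for transcript lengths and sequences. Because the notes name another build, coordinates are those of the RefSeq tables of GRCm38.p6 only. Shares, ranks and ratios were computed in Python 3.11.15, and TMM factors with edgeR 4.0.16 on rounded counts. Pseudogenes were aligned with blastn 2.17.0. Counting intervals are exact Clopper-Pearson intervals (95%) of the share of Control 3 in the 2 counts, turned into a ratio, and they cover counting error only. The ratio and length steps were tested on simulated data with known answers.

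The members, the 58 gene lists, the clock list added to them and the alternatives were chosen with earlier results of these data known. Genes are named by a rule. It takes the 10 most abundant features, the 30 most abundant nuclear protein-coding genes that are not ribosomal, and the markers. It also takes up to 6 leading members of each list and members of other-cell lists without counts. It further takes the 5 leading long noncoding features and some, not all, of the 10 widest ratios in each direction. Names outside it were added where a role called for them (Krt1, Krt8, Bmp7, Bmpr1a, Smad1, Fzd2, Lgr4, Gli1, Rnf2, Ring1, Hk2, Atf3, the features nearest the threshold, the partners of matched entries, the clock genes, and protein-coding genes of wide ratio), and these were chosen after their values were seen. Lists hold protein-coding or mitochondrially encoded members, except the sex-linked and immune lists.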

Additional observations from a re-analysis of the deposited data

How the results depend on the processing

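No paired analysis was possible because only the Control group was used and no groups were compared. The expressed set of 5714 features became 3004 at a threshold of 20 TPM and 8944 with TPM rescaled over nuclear protein-coding features (chosen after seeing the data), and with 1 library left out it ranged from 6120 to 7701. In counts in place of TPM, nuclear protein-coding genes held 66.7% (31.0% of TPM, mean of both libraries), miRNA entries 0.495% (33.2%) and mitochondrial rRNA 19.6% (18.6%), and the 10 most abundant features held 28.3% (58.0%). With 1 library left out these TPM shares ranged from 26.2 to 35.8%, 25.8 to 40.6%, 18.1 to 19.1% and 51.5 to 64.5%. Pearson's r of 0.910 became 0.850 with a pseudocount of 0.1, 0.919 in the expressed set, 0.956 over protein-coding features and 0.965 on CPM. The 755 features past 2-fold (61 higher and 694 lower in Control 3) became 336 after centring (166 and 170), 259 on CPM with TMM factors (124 and 135), 1400 at 5 TPM, 278 at 20 TPM and 268 with at least 10 counts and centring (143 and 125), the last chosen after seeing the data. The 922 features with a changed implied length became 372 at 20 TPM. The 36 genes of other cell types became 94 at 1 TPM, and 38 to 55 with 1 library left out, the higher number in Control 2 alone. TATAAA was in 7.12% of promoters of the 100 to 1000 TPM class, in place of 5.98%, when any listed start counted, also chosen after seeing the data. Depth limits Control 3 most: 191 features of the set had under 10 counts in 1 library or both.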
